A study of Mus musculus with 3 samples.

Results

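The erythropoietin receptor pathway was followed through 10 of its genes, of 21851 protein-coding genes in the annotation, in maps of open chromatin from the embryonic mouse liver. The genes were taken by name: the receptor Epor, the kinases Jak2 and Lyn, the transcription factors Stat5a and Stat5b, the feedback inhibitors Cish, Socs2 and Socs3, and the survival genes Bcl2l1 and Pim1. For each, the peaks and footprints in the gene body and the 50 kb on either side were collected. DNase-seq, in which DNase I cuts DNA that is free of nucleosomes and the ends are sequenced, was done on liver at 13.5 days of embryonic age, when the liver is the main site of red cell formation. All libraries came from the strain C57BL/6N,129, wild type apart from 1 copy of the A20 YAC, a yeast artificial chromosome, so every library shares it. The 3 libraries are numbered as biological replicates 1, 2 and 3 of 1 experiment, with 1 donor named for all of them and a separate biosample for each. They form 1 group and no treated or control samples were analysed, so values are given per library and no test was possible.

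Erythropoietin binds a preformed pair of EPOR chains on red cell precursors and activates the JAK2 kinase bound to them. JAK2 phosphorylates STAT5A and STAT5B, which enter the nucleus and bind DNA as dimers at palindromic sites. STAT5 turns on survival genes such as Bcl2l1, which encodes BCL-XL, and the inhibitors CISH, SOCS2 and SOCS3, which dampen the receptor in a feedback loop.

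The promoter sites that separated the feedback inhibitors from the other 7 genes are shown first. The STAT motif was searched as TTCNNNGAA, a palindrome that reads the same on either strand. In regions with a peak in all 3 libraries, here called shared regions, it was found at the promoters of Cish, Socs2 and Socs3 and of no other gene of the 10. The 4 stretches of 30 bases are given 5′ to 3′ on the strand of the gene in the mouse build GRCm38 (mm10), with STAT matches in capitals. They, and the longer stretches further on, were chosen after their matches were known, except that of Socs3.
Cish, upstream pair (chr9:107296654-107296683, plus strand): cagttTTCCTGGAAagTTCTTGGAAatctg
Cish, downstream pair (chr9:107296762-107296791, plus strand): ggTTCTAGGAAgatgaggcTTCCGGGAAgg
Socs2 (chr10:95416899-95416928, minus strand): gcggaTTCCTGGAAagTTCCTGGAAagcgg
Socs3 (chr11:117969229-117969258, minus strand): cggccgggcagTTCCAGGAAtcggggggcg
In the upstream pair of Cish and in Socs2 the matches start 11 bp apart, and over the 20 bases from the start of one match to the end of the other the genes have the same letter at 19. In the downstream pair of Cish the matches start 17 bp apart. All 4 stretches lie in an untranslated part of an exon of at least 1 annotated transcript.

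Replicates 1, 2 and 3 held 34369, 122281 and 60862 peaks, and 89836, 342756 and 156638 footprints, which are short protected stretches inside open chromatin. Merging gave 131881 regions, of which 25972 were shared, and replicate 1, with the fewest peaks, limits what can be shared. The signal of a peak is the authors' own value, scaled per library, so ranks rather than signals are compared between libraries. Promoters of genes that mark red cell precursors, the tissue's main cells at this age, had a peak in all 3 libraries for 8 of 10 genes. So did 4 of 10 for hepatoblasts, 1 of 5 for endothelial cells, 0 of 5 for macrophages and 0 of 5 for megakaryocytes. Over all protein-coding genes that share was 51.4%. By library, 8, 10 and 10 of the red cell markers and 4, 9 and 8 of the hepatoblast markers had a peak in replicates 1, 2 and 3. Among the defining genes Alb, of hepatoblasts, had no listed promoter peak in any library, and neither had Csf1r, of macrophages, nor Cdh5, of endothelial cells. Others of these lists had a peak in all 3 libraries: Foxa3, Hhex, Prox1 and Trf, of hepatoblasts, and Kdr, of endothelial cells. The red cell markers Alas2 and Rhag had none in replicate 1.

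Every gene of the 10 was open at its promoter. Promoters were windows reaching 1000 bp to each side of the transcription start sites (TSSs) of protein-coding transcripts, and all 10 genes had a peak there in each of the 3 libraries. Over all protein-coding genes that share was 54.0% in replicate 1, 67.3% in replicate 2 and 56.4% in replicate 3, and 51.4% had a peak in all 3. The strongest peak in these windows gives the promoter signal of a gene, and its percentile ranks that signal among the protein-coding genes of the library, from 0 to 100. The median percentile of the 10 genes was 77.45, 85.8 and 83.9 in replicates 1, 2 and 3, or 82.4 ± 4.37 (SD, n = 3). It was 49.9 for all protein-coding genes and 74.3 for those with a promoter peak in all 3 libraries.

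**Figure D1:**
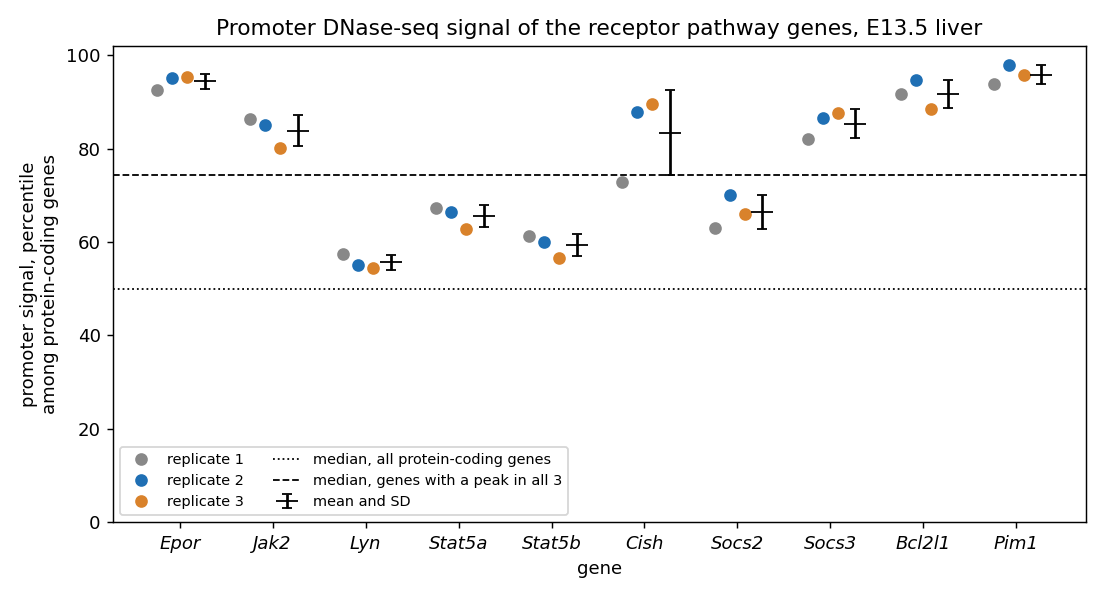
Promoter signal of each gene as a percentile among protein-coding genes (vertical axis, 0 to 100), with 1 point for each library and the mean and SD over the 3 libraries as bars. Pim1, Epor and Bcl2l1 lie highest, Lyn lowest, all above the median of all protein-coding genes (dotted line), and Cish is the gene with the widest spread.

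Epor, which encodes the receptor, lies at chr9:21958897-21963506 on the minus strand. Its promoter signals were 5.79, 20.4 and 16.6 in replicates 1, 2 and 3, which put it at percentiles of 92.6, 95.2 and 95.4, or 94.4 ± 1.57 (SD, n = 3). The libraries lay close together in rank, with replicate 1 the lowest. The region behind these values (chr9:21962461-21962760) is not at the annotated start of the receptor transcript but 875 to 905 bp inside the gene, in the first intron of the main transcript. A shorter transcript in the full GENCODE set, which the set used here leaves out, starts within this region, and a predicted RefSeq exon covers it. A weaker region (chr9:21963540-21963740) has its midpoint at -134 bp, negative distances being upstream of the TSS, and had signals of 1.61, 6.84 and 6.46. With windows of 500 bp, which hold only the weaker region, Epor stood at percentile 70.8 instead. The part of the weaker region outside untranslated exons is shown because it holds a GATA match, with matches on either strand in capitals. GATA motifs were searched as AGATAA or TGATAA and GC boxes as GGGCGG. The other motif is KLF, for the family of the red cell regulator KLF1, which can overlap the GC box. The words searched for KLF were CCACACCC, CCACGCCC, CCCCACCC and CCCCGCCC.
Epor, upstream (chr9:21963577-21963740, minus strand): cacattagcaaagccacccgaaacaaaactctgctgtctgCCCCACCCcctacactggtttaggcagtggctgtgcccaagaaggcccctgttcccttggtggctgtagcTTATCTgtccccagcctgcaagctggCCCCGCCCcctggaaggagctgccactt
The upstream stretch holds a GATA match, the binding word of the red cell regulator GATA1, at -122 bp from the TSS, and no library had a footprint over it. The intronic region holds GC boxes, KLF matches that overlap them, and no GATA match. With footprints widened by 5 bp on either side, its KLF matches, at 909 and 815 bp, were in a footprint in all 3 libraries. So was the upstream KLF match at -95 bp, and the one at -191 bp was in replicates 2 and 3. In the intronic region 5 footprints were found in all 3 libraries, and in the upstream region 1.

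Jak2, the kinase that carries the signal of the receptor, lies at chr19:29251828-29313080 on the plus strand. Its promoter signals were 4.67, 12.6 and 6.89, at percentiles of 86.4, 85.1 and 80.2, or 83.9 ± 3.30 (SD, n = 3). Here replicate 3 was the lowest and replicate 1 the highest. The peak lay at -117, -117 and -107 bp from the nearest TSS. Lyn, a SRC family kinase that also acts at the receptor, lies at chr4:3678115-3813122 on the plus strand and had signals of 1.37, 1.82 and 0.928. Its percentiles of 57.5, 55.0 and 54.4, or 55.6 ± 1.65 (SD, n = 3), were the lowest of the 10 genes in each library.

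Stat5a and Stat5b, which encode the STAT5 proteins, are neighbours on chromosome 11 and are read in opposite directions. Stat5a (chr11:100859351-100885169, plus strand) had promoter signals of 2.36, 5.15 and 2.28, at a mean percentile of 65.5 ± 2.35 (SD, n = 3). Stat5b (chr11:100780731-100850724, minus strand) had 1.76, 3.13 and 1.20, at a mean percentile of 59.3 ± 2.36 (SD, n = 3). The percentile of Stat5a was above that of Stat5b in each library. The peak of Stat5a lay at -43, -13 and -83 bp from the most downstream of its 3 TSSs, and with the most upstream TSS alone Stat5a stood at 57.5.

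The feedback inhibitors were not alike in strength. Cish (chr9:107296026-107302784, plus strand), a SOCS protein that blocks STAT5 docking, had promoter signals of 2.99, 14.1 and 11.5. Its percentiles of 72.9, 87.8 and 89.5 gave 83.4 ± 9.14 (SD, n = 3), and replicate 1 stood well below the others. Socs2 (chr10:95385362-95417180, minus strand), which restrains STAT5 signalling from growth hormone and related receptors, had signals of 1.915, 6.36 and 2.96. Its percentiles were 62.95, 70.1 and 66.1, or 66.4 ± 3.60 (SD, n = 3). Socs3 (chr11:117966079-117970047, minus strand), which binds the receptor and JAK2 and blocks the kinase, had signals of 4.06, 13.35 and 10.35. Its percentiles were 81.98, 86.5 and 87.7, or 85.4 ± 3.01 (SD, n = 3). Thus Socs2 was the weakest of the inhibitors in each library. The start sites of Gm17040 and 5730420D15Rik lie within 2000 bp of those of Cish and Socs2, so peaks there can belong to either gene.

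The survival genes were among the strongest. Bcl2l1 (chr2:152780668-152831728, minus strand) had promoter signals of 5.62, 19.9 and 10.9, at percentiles of 91.8, 94.75 and 88.6, or 91.7 ± 3.09 (SD, n = 3). It has 3 shared promoter regions, with midpoints at -15, 17 and 337 bp from the nearest TSS. Pim1 (chr17:29490753-29496112, plus strand), a kinase gene that STAT factors induce in blood cells, had signals of 6.02, 24.8 and 17.1. Its percentiles of 93.8, 97.9 and 95.9, or 95.8 ± 2.07 (SD, n = 3), were the highest of the 10 genes in each library. The start site of Gm26885 lies within 2000 bp of one of Pim1.

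In the order of mean percentiles, Pim1, Epor and Bcl2l1 followed each other by steps no larger than the larger SD over libraries of the genes compared. Socs3, Jak2 and Cish formed a middle group with the same property, and Socs2 and Stat5a a lower one. Steps larger than either SD separated Bcl2l1 from Socs3, Cish from Socs2, Stat5a from Stat5b and Stat5b from Lyn, and in every library the first gene of each pair ranked above the second. The sizes varied, and in replicate 3 Bcl2l1 stood at 88.6 and Socs3 at 87.7, with Cish above both at 89.5. Genes poor in CpG sites around their most upstream TSS were found at high and at low ranks. Within 500 bp of that TSS, the ratio of observed to expected CpG was 0.282 at Epor, 0.213 at Stat5a and 0.304 at Cish. At the other 7 genes it was between 0.762 and 0.897. The strongest peaks of Epor and Stat5a lay outside this stretch, and those of Cish almost wholly outside it. For these genes the ratio therefore does not describe the peak that was ranked.

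Pairs of STAT matches like those of Cish and Socs2 were found in few promoters. Of 11199 genes with a shared region at the promoter, 8.36% had a STAT match in such a region, and of the 10 genes 3 had one. A pair of matches that start within 30 bp of each other was found in 11 genes, or 0.0982%, among them Cish and Socs2. The limit of 30 bp was set after the sequences were seen, so these shares describe the genes and test nothing. At least 4 matches were found in 5 genes, or 0.0447%, which fall into 3 loci: Cish, then Bcl6 with its overlapping neighbour Gm37419, and the divergent neighbours Abhd17b and 1110059E24Rik. The neighbours were named after their values were seen. Counted by region, 3 of 16 promoter regions of the 10 genes held a STAT match, against 6.05% of 14947 shared regions at promoters.

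In a table of promoters around the start sites that RefSeq annotates on the same build, 8.30% of 32851 held a STAT match. Of the 8 genes with an entry there, Cish and Socs3 did. The matches of Cish lay at -47, -36, 58 and 75 bp from its second TSS. Those of Socs2 lay at -62 and -51 bp from its first TSS, and that of Socs3 at -57 bp from its TSS.

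Footprints were widened by 5 bp on either side before a match was counted as lying in them. Widened in this way, a footprint held the STAT match of Socs3 in all 3 libraries. Without the 5 bp none of them covered it whole, and the same footprint held a KLF and a GC box match, at -44 and -45 bp, in all 3 libraries. Among 961 STAT matches in shared promoter regions, 6.76% were in a widened footprint in all 3 libraries. At Cish, the outermost match of the upstream pair was in a footprint in replicates 2 and 3, and the nearer match of the downstream pair in replicate 2, again only with the 5 bp. The remaining matches of Cish and both of Socs2 were in no footprint. In replicate 2 the peak of Cish ends before the second TSS, so its downstream pair lies outside the peak there and inside it in replicates 1 and 3. A match is a stretch of letters, and a footprint does not say which protein was bound.

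**Figure D2:**
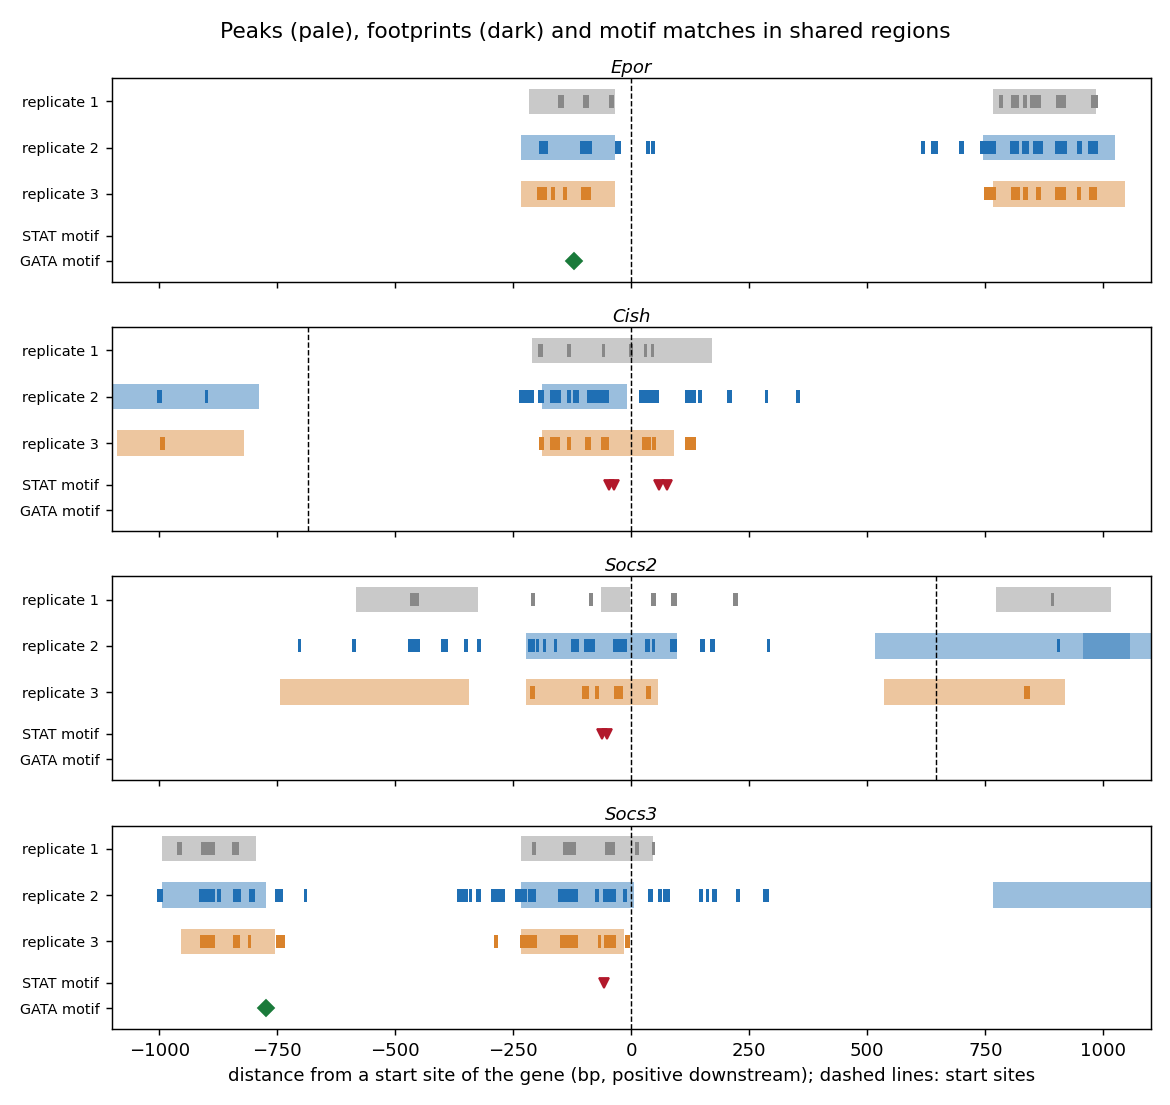
Peaks (pale bars), footprints (dark bars) and, in shared regions, matches to STAT (triangles) and GATA (diamonds) motifs, by distance in bp from a start site of Epor, Cish, Socs2 and Socs3, with 1 row for each library and start sites as dashed lines. The STAT matches of Cish, Socs2 and Socs3 all lie within 75 bp of a start site, and the strong region of Epor lies downstream of its start site.

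GATA matches at the promoters lay in both shared and other regions. Shared promoter regions of Epor and Socs3 held 1 each, or 2 of 16 regions, against 8.60% of all shared regions at promoters. By gene that was 2 of 10, against 10.3% of genes, and counts this small show no difference. Promoter regions with a peak in replicates 2 and 3 only held GATA matches as well, 3 at Cish, 2 at Stat5b and 1 at Jak2. The match of Socs3 lay at -774 bp from its TSS, in a separate region (chr11:117969941-117970180) with signals of 4.06, 7.345 and 4.26. In replicate 1 this region was a little stronger than the one that holds the STAT match, which had 3.997, and in replicates 2 and 3 it was weaker.

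Around the genes, the windows held 58 shared regions, 16 at promoters of the 10 genes, 23 at promoters of other genes and 19 away from promoters, meaning that no gene of any type starts within 1000 bp. Of the 19, 4 lay inside the genes themselves, 5 inside other genes and 10 between genes. The median window held 5.5 shared regions, with a lowest of 3 and a highest of 13, against 3 for all protein-coding genes. Per 100 kb it was 4.39 against 1.98. A shared region away from promoters was found in the windows of 9 of the 10 genes, against 56.0% of protein-coding genes. Windows of neighbours overlap, and those of Stat5a and Stat5b have regions in common.

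**Figure D3:**
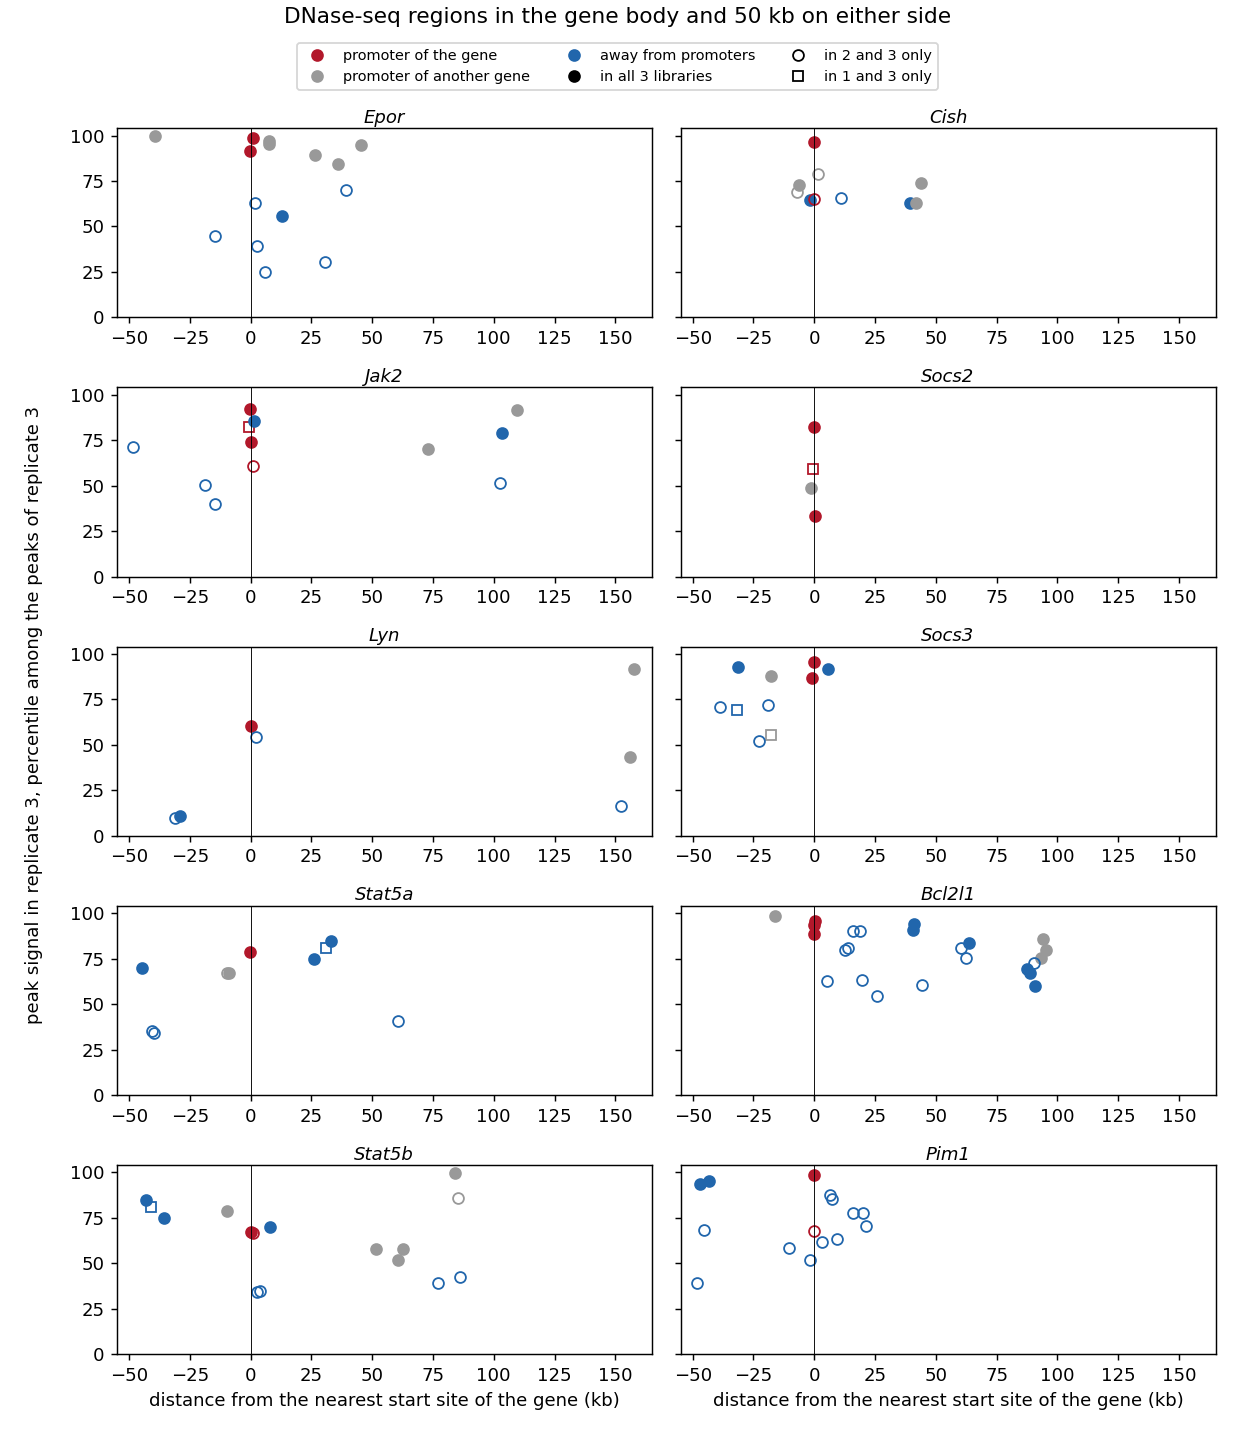
Regions with a peak in replicate 3 and at least 1 other library, by distance in kb from the nearest start site of the gene (horizontal axis) and by percentile of the peak among the peaks of replicate 3 (vertical axis). Filled circles are in all 3 libraries, open circles in replicates 2 and 3 only and open squares in replicates 1 and 3 only, in red for promoters of the gene, grey for promoters of other genes and blue for regions away from promoters. Bcl2l1 and Pim1 have 11 open blue circles each, and Socs2 has no blue point.

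The Bcl2l1 window held the most, with 13 shared regions, 6 of them away from promoters. Its density of shared regions exceeded that of 94.4% of protein-coding genes, and its density away from promoters that of 96.3%. The region that ranked best in its weakest library lay between genes, 63629 bp downstream of the nearest TSS (chr2:152766581-152766780), with signals of 5.05, 6.27 and 3.18. Another between genes, 87679 bp away (chr2:152742521-152742740), had 1.61, 2.96 and 1.32. Inside the long intron of Bcl2l1, 41019 bp from the TSS, a region (chr2:152789121-152789460) had signals of 1.69, 6.48 and 8.30. A shared region beside it, 40569 bp from the TSS (chr2:152789621-152789860), is also named, for its motif matches, and had 1.23, 5.65 and 6.05. It held 2 STAT matches, 1 of them in a widened footprint in replicate 2, and a GATA match in one in replicates 2 and 3. The strongest region of the window in replicates 2 and 3, apart from the promoter of Bcl2l1, was at the promoter of Tpx2, which encodes a spindle protein, with 4.39, 17.4 and 15.9. The start of the nearby Id1, which encodes an inhibitor of differentiation factors, held 3 more.

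A further 11 regions of the Bcl2l1 window lay away from promoters and had a peak in replicates 2 and 3 and none in replicate 1, 8 of them in the intron. That count exceeded the one in 99.4% of protein-coding genes. The strongest (chr2:152811321-152811600), 18849 bp from the TSS, had signals of 2.70 and 5.68 in replicates 2 and 3. The next (chr2:152814321-152814560), 15869 bp from the TSS, had 2.47 and 5.68. Of the 11 regions, 9 held a GATA match and 1 a STAT match, where 43.8% and 7.40% of such regions over the genome did. These matches were counted over whole regions, which differ in width. In the central 200 bp, 40.9% of the 44 such regions of the 10 genes held a GATA match, close to the 39.75% over the genome. The strongest and the next are shown because they hold GATA matches in widened footprints, with GATA matches in capitals.
Bcl2l1 intron, replicates 2 and 3 (chr2:152811321-152811600, minus strand): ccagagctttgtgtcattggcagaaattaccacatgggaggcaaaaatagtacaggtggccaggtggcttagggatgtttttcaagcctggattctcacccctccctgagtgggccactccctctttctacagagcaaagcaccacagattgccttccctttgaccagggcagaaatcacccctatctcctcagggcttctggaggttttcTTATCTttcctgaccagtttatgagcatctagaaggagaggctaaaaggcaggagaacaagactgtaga
Bcl2l1 intron, replicates 2 and 3 (chr2:152814321-152814560, minus strand): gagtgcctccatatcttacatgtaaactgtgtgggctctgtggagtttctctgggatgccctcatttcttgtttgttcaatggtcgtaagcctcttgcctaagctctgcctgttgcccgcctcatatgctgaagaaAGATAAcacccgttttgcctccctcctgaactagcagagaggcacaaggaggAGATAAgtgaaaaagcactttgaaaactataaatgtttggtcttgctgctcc
In each of them 1 GATA match was in a footprint in replicates 2 and 3.

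The Pim1 window had 3 shared regions, 1 at its promoter and 2 far upstream. The farther one, at -46812 bp (chr17:29443801-29444080), had signals of 1.43, 4.80 and 8.07. The other, at -43232 bp (chr17:29447381-29447660), had 1.14, 7.92 and 10.05. As at Bcl2l1, 11 regions away from promoters had a peak in replicates 2 and 3 and none in replicate 1, and 5 of them held a GATA match, beside the same 43.8%. The strongest of these in replicate 3 lay 6334 bp downstream of the nearest TSS of Pim1 (chr17:29499621-29499860), with signals of 3.79 and 4.44. The far upstream region and this one are shown because each holds a GATA and a STAT match, in capitals.
Pim1, upstream, in all 3 libraries (chr17:29443801-29444080, plus strand): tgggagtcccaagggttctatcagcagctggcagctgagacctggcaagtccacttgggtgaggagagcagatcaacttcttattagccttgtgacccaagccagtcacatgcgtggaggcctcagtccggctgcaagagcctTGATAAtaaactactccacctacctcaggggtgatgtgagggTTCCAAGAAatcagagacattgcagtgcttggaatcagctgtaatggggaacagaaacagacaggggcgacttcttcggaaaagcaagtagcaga
Pim1, downstream, replicates 2 and 3 (chr17:29499621-29499860, plus strand): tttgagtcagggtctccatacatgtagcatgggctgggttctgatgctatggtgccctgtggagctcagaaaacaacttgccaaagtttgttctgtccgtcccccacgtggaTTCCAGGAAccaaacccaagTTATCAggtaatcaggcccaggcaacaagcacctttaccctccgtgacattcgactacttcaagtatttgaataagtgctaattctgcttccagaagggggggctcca
In the upstream region the GATA match was in a footprint in replicate 1 and the STAT match in none. In the downstream region the STAT match was in a footprint in replicate 3 and the GATA match in none.

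The Epor window had 9 shared regions in 104.6 kb, a density above that of 94.3% of protein-coding genes, but 6 of them were at promoters of other genes. The strongest in replicates 2 and 3 (chr9:22002621-22003020) is at the promoters of Prkcsh, which encodes a glucosidase subunit, and Ccdc151, with signals of 6.01, 24.3 and 23.3. In replicate 1 a region at the promoter of Swsap1 was slightly stronger, at 6.07. Away from promoters there was 1 shared region, 12991 bp downstream of the TSS (chr9:21950401-21950629), with 2.25, 2.24 and 0.810. Another 6 regions had a peak in replicates 2 and 3 and none in replicate 1, 2 of them in Epor itself and 2 with a GATA match.

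Around Jak2, 6 regions were shared. A region 1520 bp downstream of the TSS, in the intron (chr19:29253861-29254060), had 2.28, 5.515 and 3.71. The other one away from promoters lay in an intron of Plgrkt, a plasminogen receptor gene, with 3.38, 3.95 and 2.32, and the promoter of Plgrkt had 2.46, 6.47 and 6.54. The Lyn window, the longest at 235 kb, held 4 shared regions, 1 of them away from promoters, with weak signals of 0.459, 0.632 and 0.332, at -28884 bp (chr4:3649101-3649360). Its strongest region was at Rps20, a ribosomal protein gene, with 5.11, 11.2 and 6.60. Lyn thus had the weakest promoter and few other regions for the length of its window, 1.70 per 100 kb.

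Between and beyond Stat5a and Stat5b, the shared regions away from promoters were an intronic region of Stat5b and 2 inside Stat3, the next gene along. The first, 7887 bp downstream of the nearest TSS of Stat5b (chr11:100814541-100814740), had signals of 1.20, 1.99 and 1.36. Those in Stat3 had 1.11, 2.52 and 1.74 in an exon and 2.60, 5.69 and 3.59 in an intron (chr11:100893521-100893720). Only the region in the exon held GATA matches, 2 of them. The strongest promoter of a neighbour in the window of Stat5a was that of Stat5b itself, and in the window of Stat5b that of Rab5c, a gene of endosome traffic, with 6.80, 31.2 and 28.5.

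The inhibitors differed in their surroundings as well. Socs2 had 3 shared regions in 131.8 kb, all within its own promoter or that of its neighbour, and no region away from promoters in all 3 libraries or in replicates 2 and 3. Cish had 6, with a region at -1595 bp of signals 1.93, 2.14 and 1.07, and one 39391 bp downstream, in an intron of Hemk1, of 1.41, 2.195 and 1.00. The strongest promoter of a neighbour in replicates 1 and 2 was that of Mapkapk3, a stress kinase gene, with 1.69, 3.02 and 1.55. Socs3 had 5, with a region 5605 bp downstream of its TSS (chr11:117963461-117963700) of 5.005, 14.1 and 6.45. In replicates 1 and 2 that was stronger than the region with the STAT match, and in replicate 3 weaker. Another, at -31545 bp in an intron of Pgs1 (chr11:118000621-118000840), had 1.44, 6.69 and 7.48. The promoter of Pgs1, which encodes an enzyme of cardiolipin synthesis, had 3.31, 7.52 and 4.68.

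Replicate 1 lacked more of the distant regions around these genes than of the promoters. Of 63 regions away from promoters with a peak in replicates 2 and 3, 30.2% also had one in replicate 1, against 39.0% of 28262 over the genome. At promoters in the windows it was 84.8%, against 79.1%. Among the distant regions at percentile 80 or above among the peaks of both replicate 2 and replicate 3, 6 of 15 had no peak in replicate 1, or 40%, against 27.8% of 3183. Of the 51 regions of any kind in the windows with a peak in replicates 2 and 3 alone, 2 held any position that the authors' false discovery rate file of replicate 1 lists. Replicate 2 had no listed peak at 5 regions with a peak in replicates 1 and 3, and its file lists positions in all 5, so the counts of shared regions may miss some for that reason. The number of peaks and the markers move with this: replicate 1 had the fewest peaks, 4 of 10 hepatoblast markers with one, and red cell markers at a median percentile of 57.9, against 68.8 and 79.1 in replicates 2 and 3. Their part in the result was not tested, and in whole liver fewer cells with an open site and less cutting per cell cannot be told apart. At least 1 distant region with a peak in replicates 2 and 3 alone was found for 9 of the 10 genes, against 62.5% of protein-coding genes.

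The distant regions that replicate 1 lacked held GATA matches more often than the shared ones, around these genes and over the genome. Of 44 such regions, 26 held a GATA match, or 59.1%, against 43.8% of 17237 over the genome. Of the 19 shared regions away from promoters 6 did, or 31.6%, against 24.2%. In the central 200 bp of each region the first of these pairs of shares was 40.9% and 39.75%, close to each other. STAT matches were found in 3 of the 19 shared regions, or 15.8%, against 6.38%, and in 3 of the 44, or 6.82%, against 7.40%. CTCF matches went the other way from GATA, with 36.8% of the 19 and 20.5% of the 44, against 41.2% and 14.6% over the genome. In all 3 libraries a widened footprint held the CTCF match of the shared regions named in introns of Jak2, Plgrkt, Stat3 and Hemk1. The same was true of the regions named between genes at Bcl2l1. The CTCF match downstream of Socs3 had this in replicates 1 and 2 only.

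**Figure D4:**
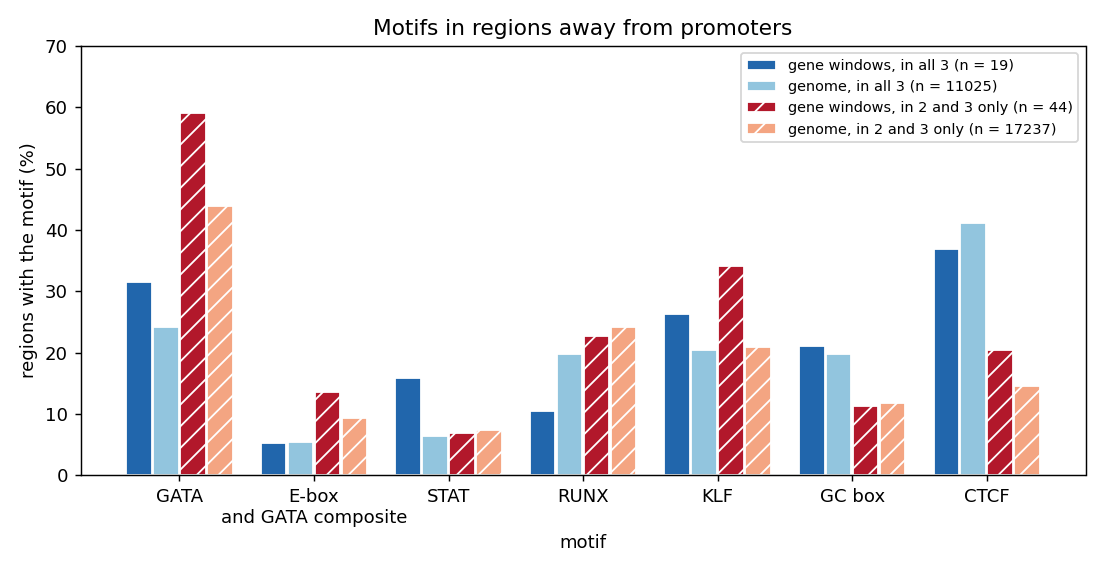
Percentage of regions away from promoters that hold each motif, for the windows of the 10 genes and for the genome, split by whether replicate 1 had a peak. GATA reaches 59.1% in the 44 regions found in replicates 2 and 3 only and 31.6% in the 19 found in all 3, and CTCF shows the reverse order.

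Footprints shared by the 3 libraries numbered 119 in the windows. By window they ran from 3 around Socs2 to 28 around Bcl2l1, with 26 around Epor, 15 around Stat5b and 13 around Jak2. Most of those in the Epor window were at promoters of other genes, with 7 at Prkcsh and Ccdc151. The intronic region of Epor held 5 and its upstream region 1. Per kb of peak, the median over the 10 genes was 11.3, 12.4 and 14.2 in replicates 1, 2 and 3, against 12.05, 11.5 and 12.4 for all genes with a peak in the window. The Socs2 window had the lowest value in each library, at 5.46, 8.85 and 5.45. The Epor window, with the peaks of its neighbours, had the highest, at 17.15, 14.9 and 17.2. Of the 119, merged over the libraries, 26.05% held a GC box, 20.2% a KLF motif and 0 a GATA motif, against 25.2%, 17.0% and 1.23% of all shared footprints. A STAT motif was held by 3 of the merged footprints, or 2.52%, against 0.514%. A merged footprint can be wider than that of any 1 library. In shared regions of the windows, only the STAT match of Socs3 was in a widened footprint in each of the 3 libraries.

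The rest of the pathway was open in most cases too. Of 94 other genes of the pathway, 79 had a promoter peak in all 3 libraries, 9 in 2 libraries, 3 in 1 and 3 in none, and their median percentile was 70.3 ± 1.065 (SD, n = 3). The RAS and MAP kinase branch had the highest median, with a peak in all 3 libraries for 9 of 9 genes and a median of 85.9 ± 1.24. Of the ligand and related receptors 6 of 11 had a peak in all 3 libraries, near the 51.4% of all protein-coding genes. Their median was 51.6 ± 2.27. Epor itself stood at 94.4, or at 70.8 with promoter windows of 500 bp. SRC family and other tyrosine kinases had 4 of 8 at 55.6 ± 0.482, a median close to the value of Lyn. The branches of survival and PIM genes (11 of 11), phosphatases and other negative regulators (13 of 14), adaptors and lipid kinases (13 of 15) and other targets and partners (11 of 13) lay between. The highest of all were Map2k1, a kinase of the MAP kinase branch, at 98.5 ± 0.929, Stat3 at 97.5 ± 2.65 and Tfrc, the transferrin receptor, at 96.9 ± 1.60 (SD, n = 3). Ptprc, a phosphatase of white blood cells, and Stat4 had no listed promoter peak in any library.

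Among the relatives of the 10 genes, Jak1 stood at 92 ± 1.41, Tyk2 at 72.0 ± 4.62 and Jak3, the kinase of lymphoid cytokine receptors, at 55.7 ± 2.68 (SD, n = 3), with Jak2 between the first and the second. Of the STAT genes, Stat2 stood at 89.3 ± 4.93 and Stat6 at 62.3 ± 4.54 (SD, n = 3). Both STAT5 genes thus lay below Stat2 and Stat3. Of the other SOCS genes, Socs4 stood at 89.3 ± 4.24, Socs5 at 80.4 ± 0.810, Socs7 at 79.2 ± 2.89, Socs1 at 68.5 ± 10.5 and Socs6 at 61.8 ± 0.433 (SD, n = 3). Pim3 stood at 79.15 ± 2.83 and Pim2 at 65.55 ± 4.025 (SD, n = 3), both below Pim1. In the SRC family Fyn stood at 86.6 ± 0.755, Src at 66.8 ± 10.5 and Yes1 at 59.9 ± 3.67 (SD, n = 3). Fgr and Lck, of myeloid and T cells, had a peak in replicates 2 and 3 and none in replicate 1. Their percentiles in replicates 2 and 3 were 43.1 and 48.0 for Fgr and 56.8 and 69.7 for Lck.

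**Figure D5:**
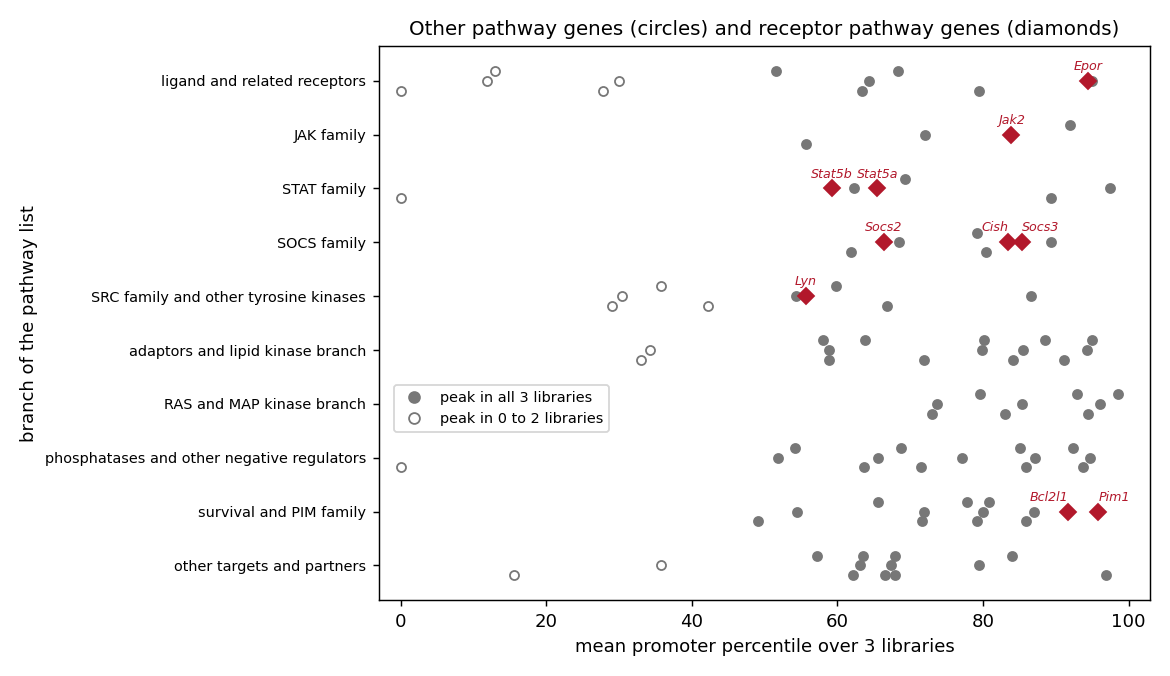
Mean promoter percentile over the 3 libraries of 94 other genes of the pathway (circles, filled where all 3 libraries had a peak) and of the 10 genes (red diamonds), by branch. Epor, ranked by its intronic region, lies above all other receptors of its branch and just below the ligand gene Epo. With promoter windows of 500 bp Epor stood at 70.8, and values of the other receptors with those windows are not given. Pim1 and Bcl2l1 lie above all other survival and PIM genes, and Stat5a and Stat5b low among the STAT genes.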

How the data were processed

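The authors deposited peaks, footprints and false discovery rates separately for each library, on mm10, per the labels. Sources used here name no peak caller. The deposited peak signal is scaled per library by the authors, on a scale the labels do not state, and read depth is unknown. The deposited false discovery rate (q-value) files were used only for whether a region holds a listed position. The footprint files hold the deposited score 0.01 in every row, so footprints were counted only. The longer peak list of each library was used. Genes came from GENCODE M21 basic, and those without a protein-coding transcript were left out. Peaks overlapping by at least 1 bp were merged. Genes without a promoter peak were ranked at 0. SDs are over 3 libraries, which may share a donor. Sequences were read from the RefSeq genome of the same build. The 10 motifs were GATA, STAT, KLF, GC box, ETS (GGAAGT), RUNX (TGTGGT), NFE2 and AP-1 (TGAGTCA or TGACTCA), FOXA (TGTTTAC or TATTTAC), CTCF and an E-box and GATA composite, which contains a GATA match; GC box and KLF matches can overlap. RUNX, NFE2 and FOXA matches were found in 4, 4 and 2 of the 58 shared regions, ETS in 15 and the composite in 1. Named were all 10 genes, up to 3 distant regions of the best worst rank per window, the neighbour with the strongest promoter, and relatives of the 10 genes, apart from a few items that are not reported here. The genes and lists were chosen with earlier results of these data known. Python 3.11.15, numpy 2.4.6 and pysam 0.24.0 were used, on code tested on simulated data. Alternatives were other windows, flanks, overlaps, start sites, peak lists and libraries.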

Additional observations from a re-analysis of the deposited data

How the results depend on the processing

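All 10 genes kept a promoter peak in every library used under every alternative run for it. Their median percentile of 82.4 was 76.5 with promoter windows of 500 bp, where Epor lost its intronic region, and ran from 80.7 to 84.9 with 1 library left out. The 58 shared regions became 30 with flanks of 10 kb and 95 with flanks of 100 kb, and 60 to 109 with 1 library left out, the highest without replicate 1. The 119 shared footprints became 69 with flanks of 10 kb, and 127 to 290 with 1 library left out, the highest without replicate 1. The 14 shared regions with a GATA or STAT motif were 12 in the central 200 bp. Summed signals moved 7 of the 10 genes by more than their SD, Bcl2l1 to 98.8 and Stat5a to 62.9 among them. Keeping equal numbers of the strongest peaks, an alternative added for the percentiles after seeing the data, left the median at 82.4. No paired analysis was possible because the libraries form 1 group. The small number of peaks in replicate 1 limits which regions could be found in all 3 libraries, and a region without a listed peak is not shown to be closed.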

Other observations

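Epo, the ligand of the receptor and a gene that the embryonic liver is known to express, had a promoter percentile of 95.0 ± 1.04 (SD, n = 3), with the peak at -399 bp from the nearest TSS in each library. The start sites of Gnb2 and Gm17112 lie within 2000 bp of that of Epo, so the peak can belong to any of them. Epo was picked with its values already known. The other genes with a pair of STAT matches within 30 bp in a shared promoter region, also named after their values were seen, included Bcl6, Gm37419, Cast, Dcps, Dtd2, Hivep2, Irf8 and Klc3, besides Cish and Socs2.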
